A study of Homo sapiens with 6 samples.

Results

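The RNA of 9 enzymes that make serine and pass its carbon into the folate cycle was compared between TPC-1 and *RRM2*-OE-TPC-1 cells. They are *PHGDH*, *PSAT1* and *PSPH* of serine synthesis, *SHMT1* and *MTHFD1* of the cytosolic folate cycle, and *SHMT2*, *MTHFD2*, *MTHFD1L* and *ALDH1L2* of the mitochondrial folate cycle. They were taken by gene symbol from a table of 58735 genes, each matched 1 row, and all 9 passed the filter on low values. TPC-1 is an established human papillary thyroid carcinoma cell line, and 3 libraries of its wild strain (genotype WT) served as controls. The other 3 libraries came from the same line infected with a lentivirus (LV18, CMV/Puro) that carries *RRM2*, a subunit of ribonucleotide reductase, and selected with puromycin. The controls were neither infected nor selected, and libraries of an empty vector were not analysed here, so infection, selection and *RRM2* itself cannot be told apart. The methods call the 3 libraries of each line biological replicates, and whether the infected cells were a pool or a clone is not given in the sources used here.

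Serine is made from the glycolytic intermediate 3-phosphoglycerate. PHGDH oxidises it, PSAT1 adds an amino group from glutamate, and PSPH removes the phosphate. Serine hydroxymethyltransferases (SHMT1 in the cytosol, SHMT2 in mitochondria) then split serine into glycine and a carbon unit carried by tetrahydrofolate. In mitochondria this unit is oxidised by MTHFD2 and released as formate by MTHFD1L, or burned to carbon dioxide by ALDH1L2. In the cytosol MTHFD1 takes up formate for the synthesis of purines and thymidylate. Many of these genes are known targets of ATF4, a transcription factor that is translated when amino acids are scarce or the endoplasmic reticulum is stressed.

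The deposited values are FPKM, a fragment number scaled by gene length and library depth, and whole reads were recovered from them (14317091 to 17084067 reads on genes per library). *RRM2* itself was at 8.92 ± 0.346 FPKM in TPC-1 and rose to 48.4 ± 1.78 in the infected cells (mean ± SD, n = 3 each, as for every mean below), and the titles of all 6 libraries matched this order. The genotype label names RRM3 and RRM4 in place of *RRM2* for replicates 2 and 3 of the infected cells. Replicate 1 of *RRM2*-OE-TPC-1 lay farther from replicates 2 and 3 (a chi-square of 5.54 and 6.31 per gene, where sampling noise gives about 1) than these lay from each other (1.85). Of 12 thyroid and epithelial markers 5 passed the filter, with a median log2 fold change of 0.43. All 5 were past an adjusted p of 0.05 with limma, where 67.6% of all tested genes were. The thyroid transcription factors *PAX8* (69.3 and 58.5 FPKM) and *FOXE1* (4.30 and 3.19) fell, *HHEX* (2.47 and 4.61) rose, and so did the keratins *KRT8* (2.56 and 3.48) and *KRT18* (41.2 and 85.2), of which *KRT18* was called. In contrast, *TG*, *TSHR* and *SLC5A5* were near 0 in both groups and *NKX2-1* had no read. At the thresholds given below, 4.48% of all tested genes were called higher and 6.97% lower. Of 11 markers of other cell types 2 passed the filter and 1 of them, *PECAM1*, was called lower (0.924 and 0.0588 FPKM). The other, *PDGFRB*, was at 2.12 and 2.37 FPKM and did not pass the test (limma adjusted p = 0.223). All 11 summed to 3.30 to 3.67 FPKM in TPC-1 and 2.55 to 2.81 in *RRM2*-OE-TPC-1. *CD3E* had no read and *PTPRC* at most 1 in a library, and the part of these markers in the results was not tested.

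Of the 9 enzymes, 6 were lower in *RRM2*-OE-TPC-1, 1 was slightly higher and 2 did not pass the test. *ALDH1L2*, *PHGDH* and *PSAT1* fell most, to levels 60.0% to 65.2% lower. *SHMT1*, *MTHFD2* and *SHMT2* fell by 38.2% to 48.7%. *MTHFD1* rose by 12.2%, and the values of *PSPH* and *MTHFD1L* overlapped between the groups. In bulk RNA, fewer cells that express a gene and less RNA per cell cannot be told apart.

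**Figure D1:**
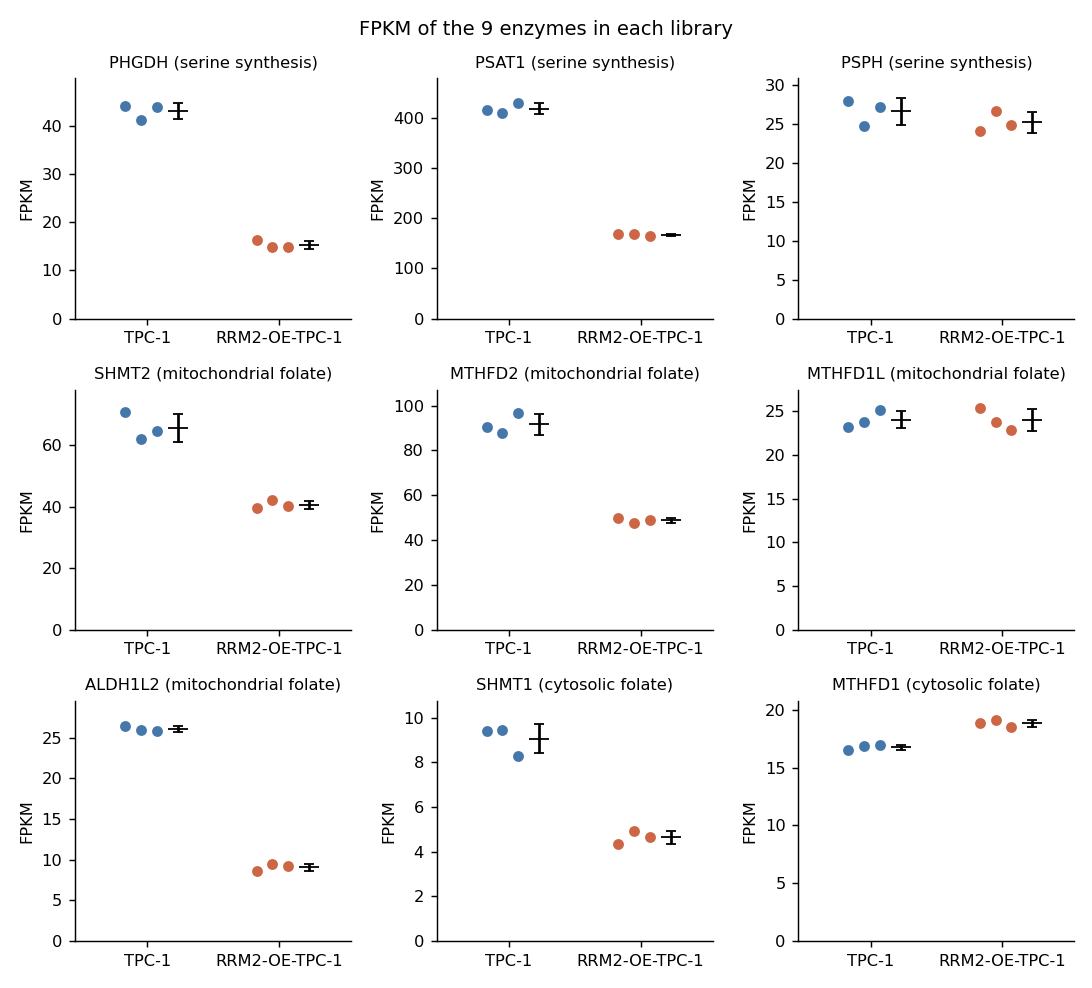
FPKM of the 9 enzymes in each of the 6 libraries, 1 panel per enzyme with a linear axis from 0, a point per library, and the group mean ± SD (n = 3) beside the points. The 3 *RRM2*-OE-TPC-1 libraries lay below all TPC-1 libraries for *PHGDH*, *PSAT1*, *SHMT1*, *SHMT2*, *MTHFD2* and *ALDH1L2*, and above them for *MTHFD1*. For *PSPH* and *MTHFD1L* the values of the groups overlapped.

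Changes were tested with limma on log2(FPKM + 0.1) across 13621 genes with Benjamini-Hochberg adjustment, and a gene was called at an adjusted p of 0.05 or less together with a log2 fold change of at least 1 in either direction. Of the 9 enzymes 3 were called, all lower, where 6.97% of all tested genes were called lower and 4.48% higher. On adjusted p alone 7 passed, 6 lower and 1 higher, where 67.6% of all tested genes passed, 32.7% lower and 34.9% higher. The groups did not overlap for 7 of the 9, which by itself is close to the 72.2% of all tested genes. Without replicate 1 of *RRM2*-OE-TPC-1, which stood apart, 3 enzymes were called and 7 passed on adjusted p alone. The median log2 fold change was -0.90 over the 9 enzymes and 0.01 over all tested genes.

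The promoters of 5 enzymes are shown because their genes differ in response: *PHGDH* and *PSAT1*, which fell most among those with a sequence, *MTHFD2*, which fell less, *MTHFD1L*, which did not pass the test, and *MTHFD1*, which rose. The RefSeq table (GRCh38.p14, 250 bases before to 50 after each start site) held windows for 6 of the 9 genes. *PSPH*, *SHMT2* and *ALDH1L2* had none. Each was searched on both strands for TGATGNAA, a core of the C/EBP-ATF response element that ATF4 binds, for the E-box CACGTG and for the antioxidant response element TGACNNNGC. No overlap between these motifs was found in the windows of members. Capitals mark the matches. The windows lie at chr1:119711684-119711983 (*PHGDH*), chr9:78296875-78297174 (*PSAT1*), chr2:74198365-74198664 (*MTHFD2*), chr6:150866236-150866535 (*MTHFD1L*) and chr14:64388103-64388402 (*MTHFD1*), all on the plus strand.
PHGDH: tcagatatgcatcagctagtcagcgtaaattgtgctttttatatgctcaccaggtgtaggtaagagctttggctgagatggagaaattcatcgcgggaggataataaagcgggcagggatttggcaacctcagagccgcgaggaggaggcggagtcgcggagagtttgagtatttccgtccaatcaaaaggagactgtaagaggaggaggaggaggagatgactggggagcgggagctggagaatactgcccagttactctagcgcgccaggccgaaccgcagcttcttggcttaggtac
PSAT1: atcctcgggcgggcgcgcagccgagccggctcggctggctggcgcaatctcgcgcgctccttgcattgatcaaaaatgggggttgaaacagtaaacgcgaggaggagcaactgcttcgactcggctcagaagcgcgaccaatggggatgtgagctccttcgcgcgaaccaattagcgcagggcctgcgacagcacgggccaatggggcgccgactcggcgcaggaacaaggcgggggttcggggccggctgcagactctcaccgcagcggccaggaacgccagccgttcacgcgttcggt
MTHFD2: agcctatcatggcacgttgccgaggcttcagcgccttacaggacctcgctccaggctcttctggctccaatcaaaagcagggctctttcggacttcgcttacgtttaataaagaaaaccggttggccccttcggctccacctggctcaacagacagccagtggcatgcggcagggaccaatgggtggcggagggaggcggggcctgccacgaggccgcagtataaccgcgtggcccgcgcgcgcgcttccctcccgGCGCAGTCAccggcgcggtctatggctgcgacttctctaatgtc
MTHFD1L: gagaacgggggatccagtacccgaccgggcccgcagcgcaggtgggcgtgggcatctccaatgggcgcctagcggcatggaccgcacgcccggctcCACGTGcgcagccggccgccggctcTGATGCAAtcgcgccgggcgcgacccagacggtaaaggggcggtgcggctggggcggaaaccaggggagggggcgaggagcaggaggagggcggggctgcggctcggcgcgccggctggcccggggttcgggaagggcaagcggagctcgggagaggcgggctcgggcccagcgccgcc
MTHFD1: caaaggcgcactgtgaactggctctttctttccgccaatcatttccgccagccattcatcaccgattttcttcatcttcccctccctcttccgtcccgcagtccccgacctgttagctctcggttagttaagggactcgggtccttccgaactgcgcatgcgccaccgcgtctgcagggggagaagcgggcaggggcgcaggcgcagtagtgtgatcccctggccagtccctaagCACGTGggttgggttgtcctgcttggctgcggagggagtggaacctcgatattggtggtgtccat

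TGATGNAA was present in the windows of 1 of the 6 genes, *MTHFD1L*, at 129 bases before this start site, and in 3.62% of all 35116 windows. Of the 4 *MTHFD1L* windows, 3 hold it because they overlap. CACGTG was in *MTHFD1L*, 154 bases before the start site, and in *MTHFD1*, 15 bases before it. By window these were 4 of 9, of which 3 are the overlapping ones of *MTHFD1L*, against 7.26% of all windows. TGACNNNGC was in *MTHFD2*, 6 bases after the start site, which is 1 of the 9 windows, against 13.3% of all windows. The windows of *PHGDH*, *PSAT1* and *SHMT1* held none of these letters. By gene symbol, 4.46% of 27305 held TGATGNAA. Among genes with a window on the lists described below, it was in 6 of 18 of the amino acid response, 3 of 12 serine and glycine transporters and 1 of 10 methionine cycle genes. It was in 0 of 15 genes of glycine cleavage and use, 0 of 9 other folate genes, 0 of 7 of glycolysis, 0 of 5 of purine synthesis and 0 of 2 tRNA synthetases, and these differences were not tested. A match is a description of the sequence, and a window without one says nothing of a factor that binds elsewhere.

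By summed FPKM, serine synthesis was the most strongly expressed arm, mostly through *PSAT1*. Its first 2 steps fell while the last step did not pass the test. *PHGDH* (ENSG00000092621, GRCh38 chromosome 1, 119648411 to 119744226, plus strand) encodes the dehydrogenase that draws 3-phosphoglycerate from glycolysis. It was at 44.0, 41.2 and 43.9 FPKM in TPC-1 replicates 1 to 3 and at 16.3, 14.9 and 14.9 in *RRM2*-OE-TPC-1. Every infected library was thus far under the lowest control. The log2 fold change was -1.48 (SE 0.0478, 95% interval -1.59 to -1.37, limma adjusted p = 1.53e-07), and 2166 to 6773 reads stood behind each value. Among the 13621 tested genes its rank by mean FPKM went from 790 to 2922.

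*PSAT1* (ENSG00000135069, chromosome 9, 78297143 to 78330093, plus strand) encodes the aminotransferase of the second step and was by far the most abundant of the 9. Its level was 415, 409 and 429.5 FPKM in TPC-1, against 168, 168 and 164 in *RRM2*-OE-TPC-1. The spread within each group was small beside the gap between them. On the log2 scale the difference was -1.32 (SE 0.0355, interval -1.40 to -1.24, limma adjusted p = 6.27e-08). Even after this fall *PSAT1* ranked 148 among the tested genes, from 49 in TPC-1.

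*PSPH* (ENSG00000146733, chromosome 7, 56011051 to 56051604, minus strand) encodes the phosphatase of the last step. It was at 27.9, 24.7 and 27.2 FPKM in TPC-1, against 24.0, 26.6 and 24.9 in *RRM2*-OE-TPC-1. The groups overlapped, with replicate 2 the lowest control and the highest infected library. Its log2 fold change was -0.08 (interval -0.21 to 0.06, limma adjusted p = 0.264), an interval that excludes changes of the size seen for *PHGDH* and *PSAT1*. The value of *PSPH* is less certain than the others, since its unprocessed pseudogene *PSPHP1* (also on chromosome 7, up to 97.3% identical over 150 bases) was listed at 14.2 and 15.2 FPKM from 371 reads in all 6 libraries. The other 13 pseudogenes that carry a member's symbol had at most 4 reads each over all libraries.

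Of the mitochondrial folate enzymes, 3 fell and 1 did not pass the test. *ALDH1L2* (ENSG00000136010, chromosome 12, 105019784 to 105084577, minus strand), whose product oxidises formyl-tetrahydrofolate to carbon dioxide, had the largest fold change of the 9. It was at 26.5, 26.0 and 25.8 FPKM in TPC-1 and at 8.59, 9.40 and 9.24 in *RRM2*-OE-TPC-1. The infected libraries were 65.2% lower on average, with no overlap. The log2 fold change was -1.51 (SE 0.0443, interval -1.62 to -1.41, limma adjusted p = 9.74e-08).

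*MTHFD2* (ENSG00000065911, chromosome 2, 74198562 to 74217565, plus strand) encodes the dehydrogenase and cyclohydrolase that turns the carbon unit from serine into formyl-tetrahydrofolate. Its level was 90.3, 87.9 and 96.7 FPKM in TPC-1, against 49.9, 47.8 and 48.9 in *RRM2*-OE-TPC-1. All infected libraries were lower, by a little less than the fold threshold. On the log2 scale the difference was -0.90 (SE 0.0422, interval -1.002 to -0.81, limma adjusted p = 8.33e-07). *SLC4A5*, on the opposite strand, overlaps 27.2% of the exon bases of *MTHFD2* but had a mean of 16.8 reads against 5555.

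*SHMT2* (ENSG00000182199, chromosome 12, 57229327 to 57234935, plus strand) encodes the mitochondrial enzyme that takes the carbon unit from serine. It was at 70.6, 61.8 and 64.5 FPKM in TPC-1 and at 39.6, 42.1 and 40.0 in *RRM2*-OE-TPC-1. The lowest control stood well above the highest infected library. Its log2 fold change was -0.69 (SE 0.0528, interval -0.81 to -0.57, limma adjusted p = 1.05e-05).

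*MTHFD1L* (ENSG00000120254, chromosome 6, 150865549 to 151101887, plus strand) encodes the synthetase that releases formate from mitochondria. It was at 23.3, 23.8 and 25.1 FPKM in TPC-1 and at 25.3, 23.7 and 22.9 in *RRM2*-OE-TPC-1. The highest and the lowest of the 6 values were both in the infected cells. The mean was 24.1 ± 0.956 in TPC-1, against 24.0 ± 1.25 in *RRM2*-OE-TPC-1, and the interval of the log2 fold change ran from -0.12 to 0.11 (limma adjusted p = 0.922).

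The cytosolic folate enzymes moved in opposite directions. *SHMT1* (ENSG00000176974, chromosome 17, 18327860 to 18363563, minus strand), the cytosolic counterpart of *SHMT2*, was the least abundant of the 9. It was at 9.39, 9.46 and 8.30 FPKM in TPC-1 and at 4.34, 4.94 and 4.65 in *RRM2*-OE-TPC-1. The infected libraries were all lower, and the log2 fold change was -0.95 (SE 0.0727, interval -1.12 to -0.78, limma adjusted p = 1.07e-05), just short of the fold threshold of 1. Scaling to library totals moved it to -1.005 and leaving out replicate 3 of TPC-1 to -1.01, which made 4 called enzymes. *SMCR8* on the opposite strand shares 196 bases with its exons, and whether strand was used in counting is not given in the sources used here.

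*MTHFD1* (ENSG00000100714, chromosome 14, 64388031 to 64463457, plus strand) encodes the trifunctional enzyme of the cytosol. It was at 16.5, 16.9 and 16.9 FPKM in TPC-1 and at 18.9, 19.1 and 18.5 in *RRM2*-OE-TPC-1. The gap was small but larger than the spread within either group. The log2 fold change was 0.17 (SE 0.0343, interval 0.09 to 0.24, limma adjusted p = 0.00301).

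**Figure D2:**
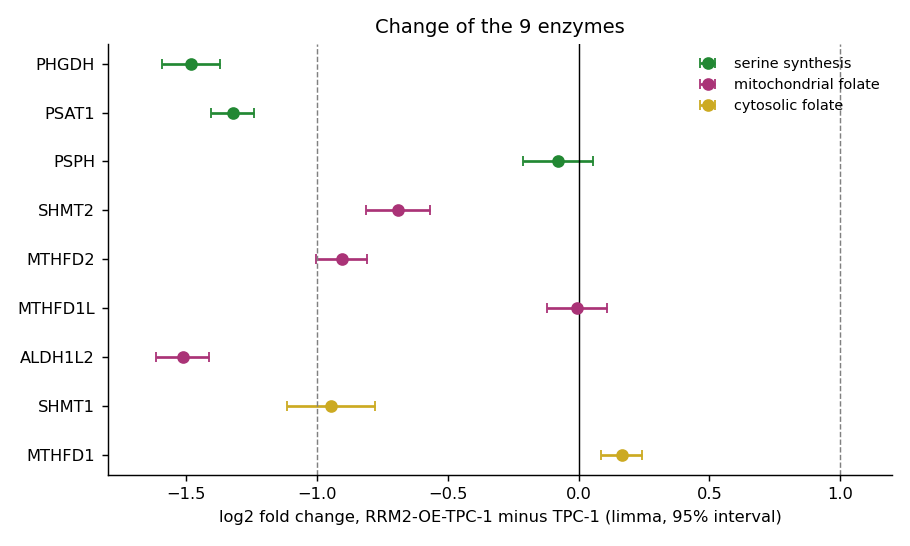
Log2 fold change (*RRM2*-OE-TPC-1 over TPC-1) of the 9 enzymes by pathway arm, with 95% intervals from limma and lines at 0 and at the fold threshold of 1 in both directions. *ALDH1L2*, *PHGDH* and *PSAT1* lie beyond the threshold, the points of *SHMT1*, *MTHFD2* and *SHMT2* between it and 0, *MTHFD1* slightly above 0, and the intervals of *PSPH* and *MTHFD1L* include 0.

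FPKM divides reads by all annotated exon bases of a gene, from 2188 for *PSAT1* to 9377 for *MTHFD1*, so a level is understated where the cells use shorter transcripts. On this scale the mean levels in TPC-1 ran from *PSAT1* (418) through *MTHFD2* (91.6), *SHMT2* (65.6), *PHGDH* (43.0), *PSPH* (26.6), *ALDH1L2* (26.1), *MTHFD1L* (24.1) and *MTHFD1* (16.8) to *SHMT1* (9.05). The values of *PSPH* overlapped those of *ALDH1L2* and *MTHFD1L*, and no other pair overlapped. In *RRM2*-OE-TPC-1 the order was *PSAT1* (167), *MTHFD2* (48.9), *SHMT2* (40.6), *PSPH* (25.17), *MTHFD1L* (24.0), *MTHFD1* (18.8), *PHGDH* (15.3), *ALDH1L2* (9.08) and *SHMT1* (4.64). Only *PSPH* and *MTHFD1L* overlapped there, and *PHGDH* and *ALDH1L2* had moved below *MTHFD1*.

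Summed over the 9 enzymes, the level was 700.4 to 738 FPKM in TPC-1 libraries and 348 to 357 in *RRM2*-OE-TPC-1 libraries. *PSAT1* alone gave 57.3% to 58.4% of the sum in TPC-1 and 47.1% to 47.4% in *RRM2*-OE-TPC-1. The share of the 2 cytosolic folate enzymes went from between 3.42% and 3.76% to between 6.54% and 6.74%, and that of the 4 mitochondrial ones from between 28.5% and 29.1% to between 34.5% and 34.8%. In FPKM, however, both arms were lower in *RRM2*-OE-TPC-1. The cytosolic sum went from between 25.2 and 26.4 to between 23.2 and 24.1, and the mitochondrial sum from between 199 and 212 to between 121 and 123. These shares and sums describe the same values as above and were not tested.

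Ratios within a library show how unequal the changes were. *MTHFD2* over *MTHFD1*, mitochondrial over cytosolic dehydrogenase, was 5.46, 5.20 and 5.71 in TPC-1, against 2.64, 2.50 and 2.64 in *RRM2*-OE-TPC-1. *SHMT2* over *SHMT1* went the other way, from 7.52, 6.53 and 7.77 to 9.12, 8.53 and 8.62. *MTHFD1L* over *MTHFD1* was 1.41, 1.41 and 1.48 in TPC-1, against 1.34, 1.24 and 1.23 in *RRM2*-OE-TPC-1. The mitochondrial member of a pair was thus lower relative to the cytosolic one for *MTHFD2* and *MTHFD1L*, and higher for *SHMT2*, in all infected libraries. *MTHFD2* over its low paralog *MTHFD2L* (1.04 and 0.914 FPKM) went from 88.0, 79.3 and 98.9 to 54.9, 55.8 and 50.02. For *ALDH1L2* no ratio to *ALDH1L1* could be read, since *ALDH1L1*, the cytosolic paralog, had at most 1 read in a library. The other 4 ratios on the log2(FPKM + 0.1) scale were without overlap, and each gave a two-sided exact permutation p of 0.1 (0.1 also after Benjamini-Hochberg adjustment over the 5 planned), the smallest that 3 against 3 libraries allow.

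Further ratios were chosen after the values were seen and were not tested. *PSAT1* over *PSPH* was 14.9, 16.6 and 15.8 in TPC-1, against 7.02, 6.32 and 6.59 in *RRM2*-OE-TPC-1. *PHGDH* over *PSPH* was 1.58, 1.67 and 1.61 in TPC-1, against 0.678, 0.558 and 0.598 in *RRM2*-OE-TPC-1, so that *PHGDH* was above *PSPH* in every control library and below it in every infected one. *MTHFD2* over *MTHFD1L* was 3.88, 3.69 and 3.85 in TPC-1, against 1.97, 2.01 and 2.14 in *RRM2*-OE-TPC-1.

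**Figure D3:**
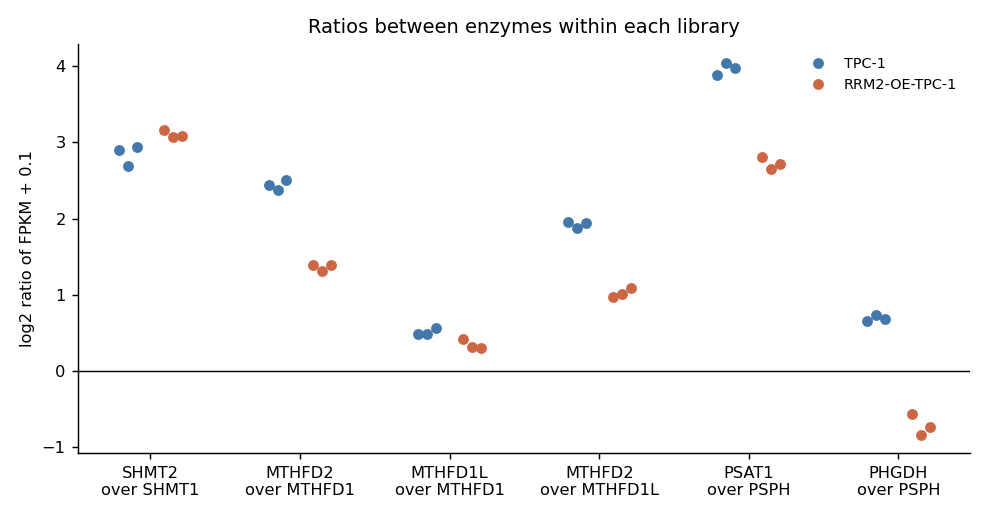
Log2 ratio of FPKM + 0.1 between enzymes within each library, with a point per library and a line at 0, where both enzymes are at the same level. *MTHFD2* over *MTHFD1* lay between 2.37 and 2.51 in TPC-1 and between 1.32 and 1.40 in *RRM2*-OE-TPC-1, *SHMT2* over *SHMT1* was higher in the infected libraries, and *PHGDH* over *PSPH* went from above to below 0.

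Genes that neighbour these enzymes in metabolism did not all move the same way. On adjusted p alone, 32.7% of all tested genes were lower and 34.9% higher, shares to set beside the counts of each list below. At both thresholds these shares were 6.97% and 4.48%. Among 17 other folate enzymes and carriers, 11 were tested, of which 6 were higher and 2 lower on adjusted p alone, with a median log2 fold change of 0.22. *TYMS*, the thymidylate synthase that uses the folate carbon for DNA, rose from 10.7 ± 0.943 to 26.5 ± 0.479 FPKM (log2 fold change 1.30, SE 0.0631, limma adjusted p = 1.03e-06). Its exons overlap the opposite-strand gene *ENOSF1* over 39.1% of their bases.

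Of 17 genes for glycine cleavage and for the use of serine or glycine, 11 were tested. On adjusted p alone 2 were higher and 5 lower, and 3 were called, all lower. *CBS*, which joins serine and homocysteine on the way to cysteine, went from 27.97 ± 2.86 to 6.75 ± 0.832 FPKM, and *CTH*, the next step, from 15.0 ± 1.13 to 3.58 ± 0.342. Both had a log2 fold change of -2.04. *CBSL*, a near copy of *CBS*, was at most at 0.580 FPKM. *GNMT*, the third call, rested on few reads (0.758 and 0.326 FPKM, limma adjusted p = 0.0211) and was lost with other settings.

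Of 12 serine and glycine transporters 10 were tested, with 4 higher and 5 lower on adjusted p alone and 2 called lower. *SLC6A9*, the glycine carrier GLYT1, was at 15.5, 14.4 and 15.1 FPKM in TPC-1 and at 3.27, 3.39 and 3.60 in *RRM2*-OE-TPC-1 (log2 fold change -2.10, limma adjusted p = 5.94e-08). *SLC1A4*, which carries serine and alanine, went from 9.96 to 2.53 FPKM (log2 fold change -1.94, limma adjusted p = 1.07e-06). Both fell more than any of the 9 enzymes, although the difference between genes was not tested. In contrast *SFXN1*, the mitochondrial serine carrier, named after its values were seen, went from 8.28 to 14.6 FPKM (log2 fold change 0.81, limma adjusted p = 1.79e-06).

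Of 11 methionine cycle genes 8 were tested, with 3 higher and 4 lower on adjusted p alone. The 1 called gene was *AHCYL1*, a relative of adenosylhomocysteinase, which fell from 76.0 to 36.6 FPKM (log2 fold change -1.05, limma adjusted p = 9.88e-08). The median over these 8 was -0.18, between that of the folate list and that of the 9 enzymes. Of the 7 glycolytic genes around 3-phosphoglycerate, *GAPDH* and *PGK1* lie before it, *PGAM1*, *ENO1*, *ENO2* and *PKM* carry it on to pyruvate, and *BPGM* lies on a bypass. All 7 were tested, and 5 were higher and none lower on adjusted p alone, with 0 called at both thresholds by limma or by voom and a median of 0.31. At an unadjusted p under 0.05, 5 of the 7 passed. Named after their values were seen, *GAPDH* went from 746 to 924 FPKM and *PGK1* from 65.9 to 102. De novo purine synthesis, which consumes folate carbon, had 5 of 6 genes higher on adjusted p alone, 0 called at both thresholds by limma or by voom, 5 at an unadjusted p under 0.05, and the same median of 0.31.

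The genes of the amino acid response, which ATF4 and its partners are known to drive, were mostly lower. Of 20 on the list 19 were tested, 13 were lower and 3 higher on adjusted p alone, and 10 were called, all lower, with a median log2 fold change of -1.17. The largest falls were those of *DDIT4*, an inhibitor of mTORC1 (297 to 28.3 FPKM, log2 fold change -3.39), *PCK2*, the mitochondrial phosphoenolpyruvate carboxykinase (57.2 to 8.03, -2.82), and *CHAC1*, which degrades glutathione (64.9 to 10.4, -2.63), each lower in 3 of 3 libraries. The RNA of *ATF4* itself, named after its values were seen, was at 263, 249 and 257 FPKM in TPC-1. In *RRM2*-OE-TPC-1 it was at 219, 213 and 208. It fell by 0.26 on the log2 scale (SE 0.0378, limma adjusted p = 0.00038).

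The cytosolic tRNA synthetases were mixed, with 6 higher and 11 lower of 20 on adjusted p alone, 2 called and a median of -0.22. The calls made up 10% of the list, near the 11.5% of all tested genes called in either direction. On adjusted p alone 85% passed, against 67.6% of all tested genes. *WARS* fell from 45.9 to 17.6 FPKM (log2 fold change -1.38) and *AARS* from 155 to 72.6 (log2 fold change -1.10).

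**Figure D4:**
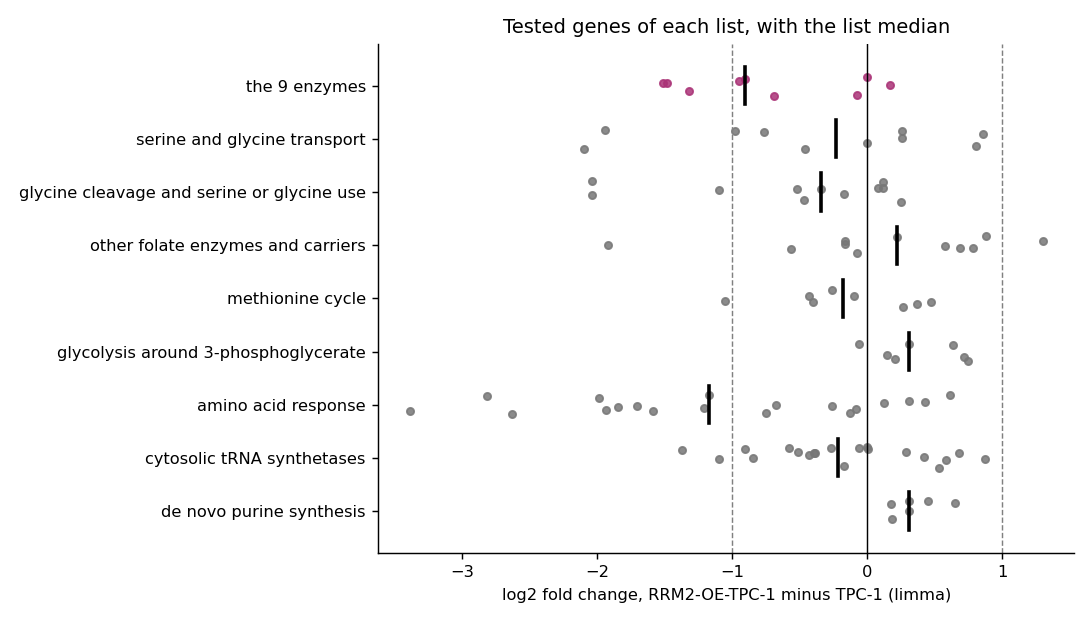
Log2 fold change (*RRM2*-OE-TPC-1 over TPC-1) of each tested gene in the 9 enzymes and the lists around them, with a point per gene (shifted vertically at random for legibility), a bar at the median and dashed lines at the fold threshold. The median was -0.90 for the 9 enzymes and -1.17 for the amino acid response, and 0.31 for both glycolysis and purine synthesis.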

How the data were processed

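RNA was sequenced from wild strain TPC-1 (3 libraries) and *RRM2*-OE-TPC-1 (3 libraries). The authors cleaned reads with fastp, aligned them with HISAT2 2.0.5 and counted them with featureCounts 1.5.0, and they deposited FPKM values. DESeq2 1.20.0 and the build GRCh38.p14 are named in the submitters' processing notes. The methods describe poly(A) selection, whereas per the labels ribosomal RNA was depleted and linear RNA digested with RNase R. Which was used is not settled by the sources used here, and its effect on the FPKM values was not tested. Strand use in counting is not given in the sources used here. GENCODE 29 (GRCh38) held each of the 58735 identifiers at the same position. FPKM times gene length gave whole reads, which were used for depth and filtering.

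Genes with at least 0.5 FPKM and 10 reads in 3 libraries (13621) were analysed as log2(FPKM + 0.1) with limma 3.58.1 in R 4.3.3 (lmFit, eBayes with trend, Benjamini-Hochberg). Fold changes are on this scale and understate those of low genes. Ratios were tested with exact permutation tests (scipy 1.17.1). The procedure was tested on simulated data. The members and lists were chosen with earlier results of these data known. Named are the members, *RRM2*, up to 3 called genes per list and direction, paralogs of the ratios, overlapping genes and pseudogenes, and the 3 genes most correlated with the member of largest change. A few genes under this rule are not reported here. Other pseudocounts, filters, scalings, a replicate block, voom on recovered reads, a test of a change above 1 and each library left out were tried. Protein sequences were not used here.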

Additional observations from a re-analysis of the deposited data

How the results depend on the processing

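Across 24 results and 288 alternative values, 285 kept their direction and, for fold changes, their side of the adjusted p threshold or, for counts of calls, stayed within 1.5 times the reported count. Within that range *SHMT1* crossed the fold threshold in 2 settings (4 enzymes called instead of 3), the glycine list went from 3 calls to 2, and the transporter list went from 2 calls to 3 when scaled to library totals and with voom. The 3 values that changed sign were all of *MTHFD1L*, which was not called in any setting: leaving out 1 library at a time gave log2 fold changes of -0.046 to 0.028, including 0.025 without TPC-1 replicate 3, 0.00088 without *RRM2*-OE-TPC-1 replicate 2 and 0.028 without *RRM2*-OE-TPC-1 replicate 3. Leaving out 1 library gave -1.54 to -1.47 for *ALDH1L2*, -1.53 to -1.46 for *PHGDH*, -1.34 to -1.30 for *PSAT1* and -1.01 to -0.90 for *SHMT1*. The limma adjusted p of *PSPH* was 0.264 as reported and 0.058 when scaled to library totals. That scaling also made the rise of *MTHFD1* smaller, from 0.17 (limma adjusted p = 0.00301) to 0.11 (limma adjusted p = 0.0317) on the log2 scale. Over all genes, 1560 were called as reported, 716 with a pseudocount of 1, 2281 with no filter on low values and 618 by a test of a change above 1, which called 3 of the 9 enzymes as well. Scaling to library totals moved the median of all genes from 0.01 to -0.045.

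Replicate numbers did not pair the libraries, since deviations of same-numbered libraries correlated at -0.055 to -0.006. With the replicate number as a block, 3 of the 9 enzymes were called and 7 passed on adjusted p alone, as without it. *GNMT* was lost with a pseudocount of 1, with no filter, and when either *RRM2*-OE-TPC-1 replicate 1 or TPC-1 replicate 3 was left out, which left 2 calls in its list. The lowest read number behind a member's value was 457, so counting error limits the 9 enzymes little, unlike *GNMT* and *MTHFD2L*.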

Other observations

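The genes whose log2(FPKM + 0.1) was most like that of *ALDH1L2* over the 6 libraries were *WARS*, *FKBP10* and *BCAM*, with Pearson r of 0.9999, 0.9998 and 0.9998. Over 2 groups of libraries such values mostly describe the gap between the groups: 807 of 11450 protein-coding genes compared had an r of at least 0.99. *FKBP10*, a collagen-folding isomerase of the endoplasmic reticulum, was at 154 and 78.1 FPKM, and *BCAM*, a laminin-binding adhesion molecule, at 111 and 21.0.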
